A study of Rattus norvegicus with 12 samples.

Results

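Antibiotics were added to tetrandrine in rats with experimental subarachnoid haemorrhage, and the faecal bacteria of these animals were set against those of animals with haemorrhage and tetrandrine alone. The comparison takes the 3 libraries labelled SAH+Tet+ABX and the 3 labelled SAH+Tet, which are 6 of the 12 libraries of the series. SAH stands for subarachnoid haemorrhage, a bleed into the space around the brain, and Tet for tetrandrine, an alkaloid from a plant root that acts on calcium channels. ABX is a common short form for antibiotics. For the drugs in it and for all doses and times, nothing is stated in the labels. Both groups carry the haemorrhage and tetrandrine, so ABX is the only labelled difference. The other 6 libraries, Sham (sham-operated) and SAH (haemorrhage without treatment), serve only as background. A second treatment label, shared by all libraries, refers to the differentiation of cells, which cannot apply to faeces, and was set aside. The study asked whether the gut microbiota differed among these groups. Nothing in the labels ties a library to an animal of its own, so the p-values weigh differences only against the spread among these libraries, which may be technical.

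Each library counts reads of a stretch of the 16S rRNA gene, whose sequence differs among bacterial taxa. Reads were grouped by the authors into amplicon sequence variants (ASVs), which are exact sequences inferred from the reads. The series held 7238 ASVs after Eukaryota rows were left out, and 4532 of them had a read in the 6 libraries. Depth was 458010, 516810 and 227299 reads in SAH+Tet 1 to 3, and 211450, 234185 and 244856 reads in SAH+Tet+ABX 1 to 3. SAH+Tet 3 therefore lies in the lower depth class with all SAH+Tet+ABX libraries, and SAH+Tet 1 and 2 in the higher one. A lineage with 0 reads in an antibiotic library could still hold a share of 0.00123% to 0.00142%, depending on the library, which corresponds to 3 reads. A share of 1% at 211450 reads has a 95% Wilson interval of 0.958% to 1.04%, and a share of 0.01% one of 0.0065% to 0.0152%. These limits cover counting error only, since PCR copies are not independent molecules. All values are shares of a library, and no bacterial load was measured. A lineage with fewer cells and a lineage diluted by the growth of others therefore cannot be told apart.

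The gut of the rat is colonised mainly by anaerobes. Muribaculaceae and Prevotellaceae are Gram-negative Bacteroidota that break down polysaccharides, Lachnospiraceae, Ruminococcaceae and Oscillospiraceae are Gram-positive Clostridia that include many butyrate producers, and Lactobacillus makes lactic acid. Smaller lineages hold particular niches, such as the mucus layer for Helicobacter, Mucispirillum and Akkermansia, or the use of sulfate and sulfite for Desulfovibrionaceae. Antibiotics remove some of these lineages and leave space for others, and which go depends on the drug.

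Antibiotic libraries lost a set of minor anaerobes to the limit of detection, still held the abundant families, and had a few Lachnospiraceae and Erysipelotrichales that SAH+Tet lacked or had at low share. To describe this, genera were put into classes by their shares alone. A genus counted as present when it reached 0.01% of reads in every SAH+Tet library, which 94 genera did. Lost genera had at most 3 reads in each SAH+Tet+ABX library, while depleted and expanded genera were otherwise below or above the SAH+Tet range in every SAH+Tet+ABX library and surviving genera overlapped it. Gained genera had at most 3 reads in every SAH+Tet library and 0.01% or more in every SAH+Tet+ABX library. There were 19 lost, 28 depleted, 41 surviving, 6 expanded and 5 gained genera. Leaving out SAH+Tet 3 gave 49 lost genera, and leaving out SAH+Tet+ABX 1 gave 26 surviving and 11 expanded ones. The classes use the same shares as the test, so the counts of calls inside a class describe it and support nothing. Just inside the 0.01% limit were Candidatus Stoquefichus (lowest SAH+Tet share 0.0103%) and Corynebacterium (0.0106%), and just outside it Adlercreutzia (0.00987%) and Marvinbryantia (0.00948%).

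**Figure D1:**
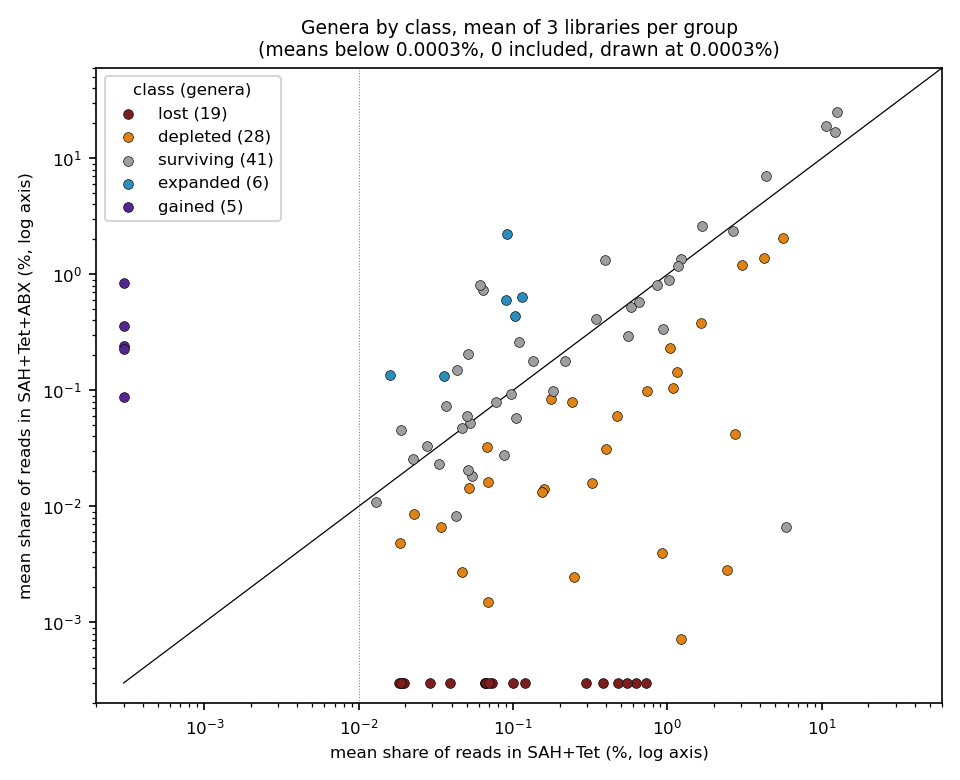
Mean share of reads of each classified genus in SAH+Tet (x axis, %, log) and in SAH+Tet+ABX (y axis, %, log), each the mean of 3 libraries, coloured by class. The line marks equal shares and the dotted line 0.01%, and means below 0.0003% are drawn at 0.0003%. The 19 lost genera lie along the bottom edge, the 5 gained genera at the left edge, and the genera above 10% in SAH+Tet lie near the line.

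Summed over the class, lost genera held 5.24%, 2.99% and 3.05% of the SAH+Tet libraries and 0%, 0% and 0.00245% of the SAH+Tet+ABX libraries. SAH+Tet 3, which has the depth of the antibiotic libraries, held a like share to SAH+Tet 2. Depleted genera held 27.4%, 30.0% and 28.0% against 5.47%, 6.80% and 5.81%. Surviving genera went from 57.1%, 52.9% and 67.7% to 90.3%, 85.2% and 76.4%, and so made up most of every antibiotic library. Expanded genera held 0.479%, 0.322% and 0.546% against 2.46%, 3.53% and 6.48%. Gained genera held 0.512%, 1.10% and 3.65% of the antibiotic libraries. By family, 8 were lost, 12 depleted, 22 surviving, 4 expanded and 0 gained, of 46 present in every SAH+Tet library.

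Across all 12 libraries, edgeR's quasi-likelihood test called 74 of 195 genera tested (37.9%) at an adjusted p below 0.05. Of these, 18 rose (9.23%) and 56 fell (28.7%). Rising genera made up 24.3% of edgeR's calls, and 22.4% to 24.7% with other scalings in edgeR or with DESeq2. By contrast, limma on centred log-ratio values called 75 genera (38.5%), of which 42 were higher (21.5%) and 33 lower (16.9%). Rising genera were thus 56% of its calls. That fit differs from edgeR in more than the scaling, and the reason was not tested. The median log2 difference of all tested genera was -1.70 with edgeR's scaling and -0.03 with centred log-ratios, and differences below are relative to the former. Calls numbered 43 with only the 6 libraries, 45 with depth class as a covariate and 0 of 104 genera tested with only libraries below 300000 reads (9 at an unadjusted p below 0.05), where SAH+Tet 3 is the lone SAH+Tet library. With only the 6 libraries 136 genera were tested. Of the 74 calls, 53 could be tested there, and all 43 calls were among them. Calls numbered 49 without SAH+Tet 1, 45 without SAH+Tet+ABX 2 and 49 without SAH+Tet+ABX 3. Of the 56 genera that fell, 34 were called without each of the 6 libraries in turn, and of the 18 that rose, 3 were, namely Erysipelatoclostridium, Frisingicoccus and Lachnospiraceae UCG-010. Depth class kept 37 of the 56 calls of lower and 6 of the 18 calls of higher genera. These 6 were Adlercreutzia, Akkermansia, Clostridioides, Erysipelatoclostridium, Flavonifractor and Frisingicoccus. Among them, Clostridioides and Flavonifractor would not have met the count filter without the SAH+Tet+ABX libraries. Beside the 3 genera called without each library, another 5 that rose were called wherever they were tested. These were Faecalitalea, Flavonifractor, Holdemania and the [Clostridium] innocuum and [Ruminococcus] gnavus groups. They were not tested without an SAH+Tet+ABX library because too few libraries then held reads, so they met the filter only through that group. The count filter would not have been met without the group where the genus was high in 7 of the 18 and 6 of the 56, which had to differ, so no p is given below for such a genus. The 2 groups did not overlap in 82 of the 195 tested genera (42.1%), with SAH+Tet+ABX lower in 63 (32.3%) and higher in 19 (9.74%). Against all 9 libraries without antibiotics, SAH+Tet+ABX lay lower in 39 genera (20%) and higher in 9 (4.62%).

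Over all 195 genera, 28.7% fell and 9.23% rose, and counts by phylum are set beside these shares. Of 24 Bacteroidota genera tested, 11 fell and 0 rose, with a median log2 difference of -7.52, and 6 of the 11 calls were kept with depth class as a covariate. All 3 Desulfobacterota, both tested Spirochaetota and the single tested genera of Campilobacterota, Deferribacterota, Elusimicrobiota and Fibrobacterota fell. Of these, Fibrobacter, Mucispirillum (the Deferribacterota genus) and both Spirochaetota lay under 0.01% in SAH+Tet 3. With depth class as a covariate Fibrobacter and unnamed Spirochaetaceae did not pass (edgeR adjusted p = 1 for each), and neither did the Bacteroidota Odoribacter, Rikenellaceae RC9 gut group, Bacteroidales RF16 group, unnamed Paludibacteraceae (adjusted p = 1 for each) and Prevotellaceae UCG-003 (adjusted p = 0.421). Of 13 Proteobacteria, 2 fell and 1 rose. Of 122 Firmicutes, 28 fell and 15 rose, with a median of -0.97, shares near those over all genera; with depth class 20 of the 28 and 4 of the 15 calls were kept. Methanosphaera, a methane-forming archaeon and thus no bacterium, also fell, from 0.0159%, 0.000967% and 0.00792% to 0 reads in all 3 antibiotic libraries; it is named after its values were seen.

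The 19 lost genera comprised 9 Firmicutes, 3 Bacteroidota, 3 Desulfobacterota and 4 genera of other phyla. Helicobacter, spiral bacteria of the mucus, held 0.549%, 0.479% and 0.855% of the SAH+Tet libraries and had 0 reads in every SAH+Tet+ABX library. The mean was at least 480-fold lower, counted against 3 reads per library (edgeR adjusted p = 0.000745). All 9 libraries without antibiotics held it at 0.211% to 0.855%. Desulfovibrionaceae reads without a genus name held 0.589%, 0.370% and 0.678% against 0%, 0% and 0.000817% (2 reads), and fell by 10.66 ± 1.35 (SE) on the log2 scale. Desulfovibrio, which reduces sulfate, went from 0.116%, 0.0331% and 0.0475% to 0 reads and was at least 50.1-fold lower. Bilophila, which uses the taurine of bile acids, went from 0.0238%, 0.0209% and 0.0422% to 0 reads and was at least 22.1-fold lower. Both fell (adjusted p = 0.0018 and 0.00304), and the whole family Desulfovibrionaceae was left with 2 reads in the 3 antibiotic libraries, from 36 ASVs in SAH+Tet.

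Several Bacteroidota were also lost, while Muribaculaceae, Alloprevotella and Bacteroides stayed in all 3 antibiotic libraries. Prevotellaceae without a genus name had 1.22%, 0.635% and 0.337% of the SAH+Tet libraries and 0 reads with antibiotics, at least 558-fold lower (edgeR adjusted p = 0.000745). Butyricimonas, a butyrate producer, went from 0.0675%, 0.0238% and 0.106% to 0 reads (at least 50.3-fold lower, adjusted p = 0.00104). Parabacteroides went from 0.0836%, 0.0813% and 0.0365% to 0, 0 and 2 reads and fell (adjusted p = 0.0022). In each of the 3 the groups were far apart, in SAH+Tet 3 as in the deeper libraries. Barnesiella, which lay under the 0.01% limit in SAH+Tet 2, also fell to 0 reads (adjusted p = 0.00149). Of the 15 tested members of a list of Bacteroidales genera, 7 fell and 0 rose, with a median log2 difference of -2.08 beside -1.70 over all 195 genera. Beside Parabacteroides, Butyricimonas and Barnesiella, the members that fell were Prevotella, Prevotellaceae UCG-003, Odoribacter and Rikenellaceae RC9 gut group, of which the last 3 had 0 reads in SAH+Tet 3 as well. The difference of Rikenellaceae RC9 gut group changes sign with depth class as a covariate.

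Lost Firmicutes came from several families. Quinella, a large rumen-type bacterium of the Selenomonadaceae, went from 0.696%, 0.518% and 0.216% to 0, 0 and 2 reads (log2 difference -10.41 ± 1.46 SE, edgeR adjusted p = 0.000745). A Ruminococcaceae lineage that carries the family name at genus level went from 0.817%, 0.217% and 0.104% to 0 reads, at least 290-fold lower (adjusted p = 0.00109). The [Eubacterium] siraeum group, relatives of fibre degraders, went from 0.678%, 0.147% and 0.0660% to 0 reads, at least 227-fold lower (adjusted p = 0.00134). All 3 were low in SAH+Tet 3 relative to SAH+Tet 1, yet stayed well above the antibiotic libraries. Smaller genera repeated the pattern. The [Eubacterium] ventriosum group lay at 0.0197%, 0.0184% and 0.0185%, UCG-007 at 0.0168%, 0.0312% and 0.0110% and Pygmaiobacter at 0.0144%, 0.0112% and 0.0295%. Each had 0 reads under antibiotics (edgeR adjusted p = 0.000745, 0.000745 and 0.000772). The same held outside the Firmicutes for Rhodospirillales without a genus name (0.0559%, 0.0786% and 0.0739%, adjusted p = 0.000745) and, below the 0.01% limit, for Coriobacteriales without a genus name (0.00699%, 0.00522% and 0.00352%, adjusted p = 0.000745). All 19 lost genera were called without any single library, with the replicate block and with depth class as a covariate. The limits of the class already set the groups apart in the same counts, so these calls describe the class and support nothing. With only libraries below 300000 reads none of the 19 could be tested, since too few of those libraries held 10 reads.

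**Figure D2:**
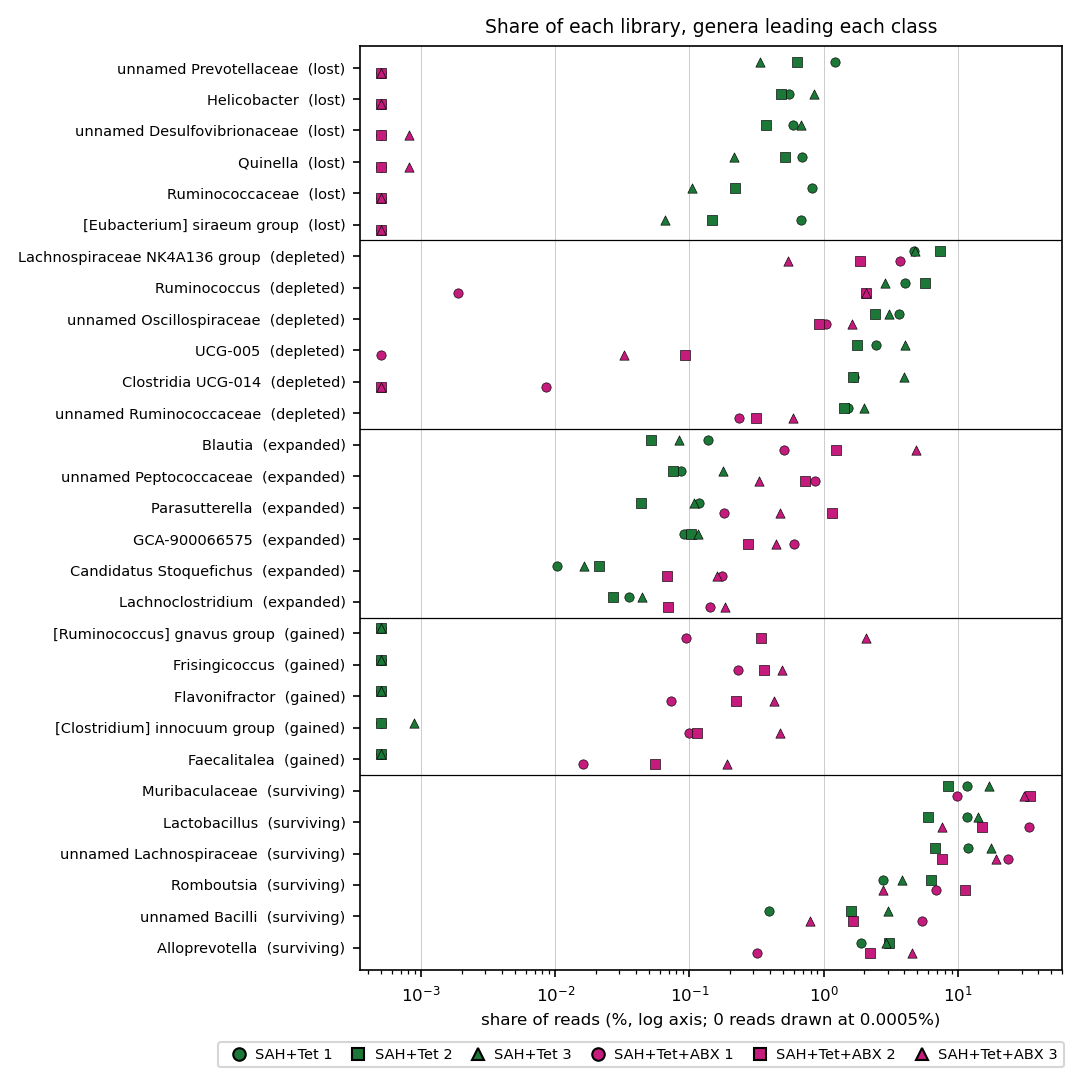
Share of reads (x axis, %, log, 0 reads drawn at 0.0005%) in each SAH+Tet library (green) and each SAH+Tet+ABX library (pink) for the genera that lead each class by mean share. Circles, squares and triangles are libraries 1, 2 and 3. Lost genera lie at or near 0 in all 3 antibiotic libraries, while the surviving genera overlap.

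Depleted genera were mostly Clostridia, and here the antibiotic libraries differed among themselves. Clostridia UCG-014, an uncultured order-level lineage, held 1.70%, 1.66% and 3.96% of the SAH+Tet libraries against 0.00851%, 0% and 0%, an 860-fold lower mean (edgeR adjusted p = 0.00317). It had 208 ASVs in the SAH+Tet libraries and 1 ASV in the antibiotic libraries, which none of the SAH+Tet libraries held. UCG-005 of the Oscillospiraceae held 2.47%, 1.77% and 4.02% against 0%, 0.0931% and 0.0327% and fell (adjusted p = 0.0178), although not without SAH+Tet+ABX 3. Roseburia, a flagellated butyrate producer, went from 1.39%, 1.02% and 0.365% to 0%, 0.0120% and 0%, a 232-fold lower mean (adjusted p = 0.0131). Prevotella held 2.08%, 1.55% and 0.0462% against 0%, 0.00214% and 0% and fell (adjusted p = 0.00874), with SAH+Tet 3 far below the other SAH+Tet libraries. Acetatifactor, another butyrate producer, also fell, from 0.0686%, 0.0577% and 0.0796% to 0%, 0% and 0.00449% (adjusted p = 0.0193).

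The 3 most abundant depleted genera did not pass edgeR's test, although some passed under other settings. Lachnospiraceae NK4A136 group, a butyrate-producing lineage of rodents, held 4.70%, 7.38% and 4.78% against 3.74%, 1.87% and 0.544% (edgeR log2 difference -1.44 ± 0.59 SE, adjusted p = 0.0756). Ruminococcus, which holds degraders of resistant starch and cellulose, held 4.07%, 5.74% and 2.88% against 0.00189%, 2.07% and 2.06% (adjusted p = 0.399). Oscillospiraceae without a genus name held 3.62%, 2.40% and 3.10% against 1.04%, 0.924% and 1.64% (adjusted p = 0.063). NK4A136 passed without SAH+Tet+ABX 1 (adjusted p = 0.0257) and with DESeq2 (adjusted p = 0.0268). Unnamed Oscillospiraceae passed without SAH+Tet+ABX 3 (adjusted p = 0.0399), with library-size scaling (0.0415), with relative log expression scaling (0.0438) and with DESeq2 (0.00101). For both the difference changes sign under centred log-ratios. By the definition of the class, all antibiotic libraries lay below all SAH+Tet libraries in each of the 3 genera. For Ruminococcus, SAH+Tet+ABX 1 lay far below the other antibiotic libraries. Ruminococcaceae without a genus name held 1.53%, 1.43% and 2.01% against 0.236%, 0.314% and 0.596% and fell (adjusted p = 0.0357), but the difference changes sign under centred log-ratios, the call was lost with depth class as a covariate (adjusted p = 0.092), and of the fits that left out a library only the one without SAH+Tet+ABX 3 kept it.

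Of a list of short-chain fatty acid producing Clostridia, 25 were detected. Of 22 tested, 5 fell, 3 rose and 14 did not pass, shares near the 28.7% and 9.23% over all genera, with a median log2 difference of -0.39 beside -1.70 over all tested genera. Roseburia, Acetatifactor and the [Eubacterium] ventriosum, siraeum and ruminantium groups fell. Blautia, Flavonifractor and Fusicatenibacter rose, of which Flavonifractor met the count filter only through the antibiotic libraries. The summed share of the list was 15.5%, 18.3% and 12.0% in SAH+Tet and 8.34%, 7.08% and 13.2% in SAH+Tet+ABX, and the groups overlapped.

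Surviving genera carried the bulk of the reads, and their order differed from library to library. Muribaculaceae, which carries the family name at genus level, held 11.8%, 8.52% and 17.1% of the SAH+Tet libraries and 9.91%, 34.3% and 31.0% of the antibiotic libraries (edgeR log2 difference 1.11 ± 0.51 SE, adjusted p = 0.104). Without SAH+Tet+ABX 1, the only antibiotic library in the range of SAH+Tet, it passed (log2 difference 1.55, adjusted p = 0.0175). Lactobacillus held 11.7%, 5.98% and 14.3% against 34.3%, 15.2% and 7.66% (adjusted p = 0.257). Lachnospiraceae without a genus name held 11.9%, 6.79% and 17.8% against 23.8%, 7.64% and 19.2% (adjusted p = 0.429). SAH+Tet+ABX 1 was thus led by Lactobacillus and unnamed Lachnospiraceae, SAH+Tet+ABX 2 by Muribaculaceae and Lactobacillus, and SAH+Tet+ABX 3 by Muribaculaceae and unnamed Lachnospiraceae. Romboutsia, an anaerobe of the Peptostreptococcaceae, held 2.76%, 6.37% and 3.85% against 6.89%, 11.4% and 2.76% (adjusted p = 0.292). Alloprevotella held 1.91%, 3.08% and 2.93% against 0.320%, 2.21% and 4.59% (adjusted p = 0.999), and Bacilli without a genus name 0.393%, 1.61% and 3.03% against 5.45%, 1.66% and 0.792% (adjusted p = 0.654). Of the 41 surviving genera, 1 passed edgeR's test, Corynebacterium. Under centred log-ratios Muribaculaceae (adjusted p = 0.0121), Romboutsia (0.0223) and unnamed Lachnospiraceae (0.0472) passed as higher.

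**Figure D3:**
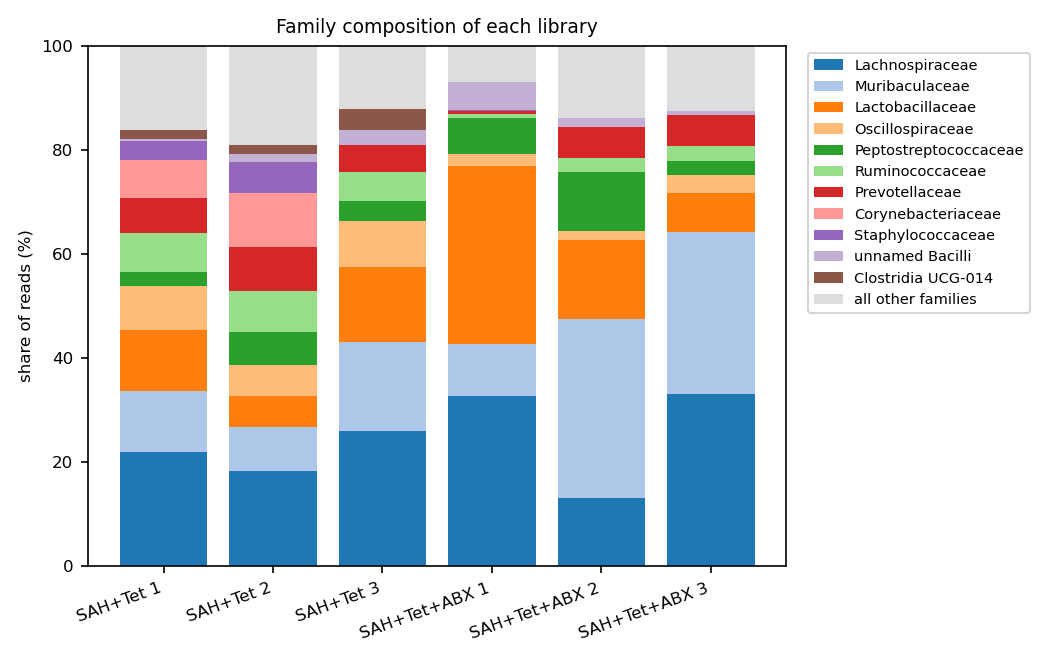
Share of reads (y axis, %) of the 11 families with the highest group mean in either group, and of all other families, in each SAH+Tet and SAH+Tet+ABX library. Lactobacillaceae reach 34.3% in SAH+Tet+ABX 1, Muribaculaceae 34.3% and 31.0% in SAH+Tet+ABX 2 and 3, whereas Corynebacteriaceae and Staphylococcaceae take a broad band in SAH+Tet 1 and 2 only.

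At family level edgeR called 28 of 93 families (30.1%), with 4 higher (4.3%) and 24 lower (25.8%). Centred log-ratios gave 39 calls (41.9%), with 24 higher (25.8%) and 15 lower (16.1%). The 4 that rose were Erysipelatoclostridiaceae, Peptococcaceae, Sutterellaceae and Akkermansiaceae. Oscillospiraceae held 8.47%, 5.94% and 8.91% against 2.27%, 1.66% and 3.30% (adjusted p = 0.0647) and Ruminococcaceae 7.33%, 7.80% and 5.56% against 0.749%, 2.73% and 2.80% (adjusted p = 0.0746), both below the SAH+Tet range in every library. Lachnospiraceae held 21.8%, 18.2% and 26.0% against 32.7%, 13.2% and 33.1% (adjusted p = 0.26). Prevotellaceae held 6.80%, 8.44% and 5.09% against 0.665%, 5.83% and 6.08% (adjusted p = 0.784). Call counts were 16 without SAH+Tet 2, 15 without SAH+Tet+ABX 2 and 15 of 60 families tested with only the 6 libraries.

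Aerobic and facultative Gram-positive bacteria, common on skin and bedding, were high in SAH+Tet 1 and 2 but not in SAH+Tet 3. Corynebacterium held 7.19%, 10.3% and 0.0106% against 0.0137%, 0.00299% and 0.00327% (edgeR adjusted p = 0.0162). Staphylococcus held 2.36%, 3.92% and 0.00704% against 0.0279%, 0.0154% and 0.00653% (adjusted p = 0.0169). Facklamia held 1.53%, 2.59% and 0.00088% against 0 reads, and would not have met the count filter without the SAH+Tet libraries. SAH+Tet 3 overlapped or nearly met the antibiotic libraries in all 3, and with only libraries below 300000 reads the difference of Staphylococcus changes sign. The calls of Corynebacterium and Staphylococcus were lost without SAH+Tet+ABX 2 and without SAH+Tet+ABX 3, and that of Facklamia without any library except SAH+Tet 3. Corynebacterium was also at 10.2% and 9.4% in SAH 2 and 3, both deep libraries, and at 0.0451% in SAH 1, a shallow one. With depth class as a covariate neither Corynebacterium (edgeR adjusted p = 0.257) nor Staphylococcus (0.403) nor Facklamia passed. Without SAH+Tet 3, Corynebacterium (adjusted p = 0.00387) and Staphylococcus (0.0015) passed. Among genera of all kinds, not only Gram-positive ones, 35 reached 0.01% in SAH+Tet 1 and 2 but not in SAH+Tet 3. Of these, 15 fell, beside 28.7% over all genera tested. Carnobacterium, Enteractinococcus, Oceanobacillus, Sporosarcina and Micrococcaceae without a genus name were among the 35 but were not tested. The set was chosen by its shares in SAH+Tet 1 and 2, which favours falls, so the count supports nothing. Those that fell included Treponema, Fibrobacter, Mucispirillum, Odoribacter and Prevotellaceae UCG-003, which are not Gram-positive. The summed share of the 35 genera was 8.87%, 13.1% and 0.0387% in SAH+Tet and 0.114%, 0.606% and 0.337% in SAH+Tet+ABX. Of the 8 tested members of a list of facultative Gram-positive genera, 5 fell and 0 rose, beside 28.7% and 9.23% over all genera. Among these 5, Aerococcus, Facklamia and Jeotgalicoccus would not have met the count filter without the SAH+Tet libraries and so had to differ. No call among the 5 was kept with depth class as a covariate, so the count describes the list and supports nothing.

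Expanded genera were present at low share in every SAH+Tet library and higher in every antibiotic library. Blautia, an acetate-forming Lachnospiraceae genus, held 0.138%, 0.0513% and 0.0832% of the SAH+Tet libraries against 0.507%, 1.24% and 4.89%, a 24.4-fold higher mean (edgeR log2 difference 4.78 ± 1.32 SE, adjusted p = 0.0189). SAH+Tet+ABX 3 was far above the others, and the call was lost without it, without SAH+Tet 1 or without SAH+Tet 2. The untreated SAH libraries held Blautia at 5.76%, 2.77% and 0.476%, so the antibiotic shares lie within the range seen without antibiotics. Parasutterella, a Proteobacterium of the Sutterellaceae, held 0.118%, 0.0437% and 0.108% against 0.181%, 1.15% and 0.475% (adjusted p = 0.0305). Peptococcaceae without a genus name held 0.0865%, 0.0757% and 0.179% against 0.860%, 0.731% and 0.330% (adjusted p = 0.0203). Candidatus Stoquefichus held 0.0103%, 0.0211% and 0.0163% against 0.175%, 0.0683% and 0.161%, an 8.48-fold higher mean (adjusted p = 0.0156), and GCA-900066575, an uncultured Lachnospiraceae genus, 0.0913%, 0.103% and 0.115% against 0.597%, 0.272% and 0.438% (adjusted p = 0.0305). Lachnoclostridium held 0.0356%, 0.0271% and 0.0444% against 0.143%, 0.0692% and 0.185% and did not pass (adjusted p = 0.0684), although it did with DESeq2 (0.00222) and centred log-ratios (0.00373). None of the 5 expanded genera that rose kept its call with depth class as a covariate (adjusted p = 0.126 for Blautia, 0.0582 for Candidatus Stoquefichus, 0.0787 for GCA-900066575, 0.0912 for Peptococcaceae and 0.092 for Parasutterella). The calls of Parasutterella and Peptococcaceae were lost when SAH+Tet 1 or 2 or the second antibiotic library was left out. That of GCA-900066575 was lost without any one SAH+Tet library and without SAH+Tet+ABX 3, and that of Candidatus Stoquefichus without SAH+Tet 1. In SAH+Tet+ABX 1 to 3, SAH+Tet ASVs made up 0%, 35.8% and 42.0% of Blautia reads. The range was 40.7% to 73.2% in 4 Sham and SAH libraries. SAH+Tet ASVs made up 1.08%, 0% and 0% of Candidatus Stoquefichus reads and none of the Lachnoclostridium reads. For GCA-900066575 the values were 0.634%, 96.7% and 77.1%, and for Peptococcaceae without a genus name 51.3%, 92.5% and 77.6%. Parasutterella reads were at least 99.9% in SAH+Tet ASVs.

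Gained genera had at most 2 reads in the SAH+Tet libraries. The [Ruminococcus] gnavus group, mucin degraders that bloom in disturbed guts, held 0.0936%, 0.342% and 2.06% of the antibiotic libraries, at least 978-fold higher. Flavonifractor, which degrades flavonoids, held 0.0733%, 0.222% and 0.428%, at least 283-fold higher, and Faecalitalea of the Erysipelotrichaceae 0.0161%, 0.0551% and 0.189%, at least 102-fold higher. These 3 genera had 0 reads in all 9 libraries without antibiotics, Sham and SAH included. The [Clostridium] innocuum group, with 2 reads in the same 9 libraries, held 0%, 0% and 0.00088% against 0.0993%, 0.114% and 0.472%. All 4 met the count filter only through the antibiotic libraries, so their shares are given as a description. With depth class as a covariate the [Ruminococcus] gnavus group, Faecalitalea and the [Clostridium] innocuum group were not called, nor, with the replicate block, the [Ruminococcus] gnavus group, Flavonifractor and Faecalitalea. Frisingicoccus held 0.230%, 0.361% and 0.493%, at least 424-fold higher (edgeR adjusted p = 0.0101, and 0.0285 with depth class), and, unlike the others, was also present in SAH at 0.251%, 0.0962% and 0.00267%. SAH+Tet+ABX 3 held the highest share of all 5 genera.

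Other genera that rose lay below 0.01% in at least 1 SAH+Tet library. Akkermansia, which feeds on mucin, held 0.0478%, 0.00503% and 0% against 0.244%, 1.46% and 1.83%, a 66.9-fold higher mean (edgeR adjusted p = 0.0465). The call was lost when library 2 or 3 of either group was left out, and the Sham libraries held Akkermansia at 1.09%, 5.44% and 1.80%. Erysipelatoclostridium held 0.0048%, 0.00793% and 0.00132% against 0.103%, 0.0944% and 0.135%, a 23.6-fold higher mean (edgeR log2 difference 4.65 ± 0.79 SE, adjusted p = 0.00176). Its share in SAH+Tet 3 was 3 reads. None of its reads in the antibiotic libraries were in SAH+Tet ASVs. The family Erysipelatoclostridiaceae stood at 0.559%, 0.311% and 0.336% in SAH, and at 0.537%, 0.194% and 0.624% in the antibiotic libraries. Lachnospiraceae UCG-010 held 0.00895%, 0.00967% and 0.0044% against 0.0426%, 0.186% and 0.320% (adjusted p = 0.0136, or 0.054 with depth class). Holdemania had 0 reads in SAH+Tet and 0.0151%, 0.00854% and 0.0212% with antibiotics (at least 17.6-fold higher); it met the count filter only through the antibiotic libraries. Fusicatenibacter rested on a single library, at 0%, 0.0209% and 2.19% against 0 reads in SAH+Tet (adjusted p = 0.0415), and its call was lost without any library except SAH+Tet+ABX 1 and with depth class. In SAH it stood at 2.12%, 0.900% and 0.00936%.

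The counts in lists of related genera stand beside 9.23% higher and 28.7% lower over all 195 genera. Of 7 tested Erysipelotrichales and relatives, 3 rose (Erysipelatoclostridium, Faecalitalea and Candidatus Stoquefichus) and 0 fell, with a median log2 difference of 3.13. Faecalitalea met the count filter only through the antibiotic libraries and so had to differ. With depth class as a covariate Erysipelatoclostridium kept its call, while Faecalitalea and Candidatus Stoquefichus did not. Of 6 tested mucus dwellers and sulfate reducers, Akkermansia rose, while Helicobacter, Mucispirillum, Desulfovibrio and Bilophila fell. Of 6 lactic acid bacteria and bifidobacteria, 1 fell, Lactococcus, and Bifidobacterium went from 0.129%, 0.0418% and 0.0123% to 0.00615%, 1.78% and 0.647% without passing (edgeR adjusted p = 0.0764, but 0.0203 without SAH+Tet+ABX 1, 0.011 with DESeq2 and 0.0411 with centred log-ratios). Of 5 tested enterobacteria and other Gram-negative opportunists, 1 rose, Parasutterella, and 0 fell. Escherichia-Shigella held 0.0218%, 0.0151% and 0.00792% against 0.0553%, 0.0154% and 0.0604% (adjusted p = 0.189, or 0.00939 for a higher level with centred log-ratios), and the groups overlapped. Of a list of 18 reagent and environmental genera, kept as a check for low-biomass contamination, 4 were found in the series and 3 in the 6 libraries. Those found summed to at most 0.00473% of any antibiotic library and at most 0.00349% of any SAH+Tet library. Pseudomonas was not on this list, and contamination was not tested in any other way. The only member tested, Brevundimonas, did not pass (adjusted p = 0.913).

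At the level of ASVs, families differed in how many of their variants were still found under antibiotics. Of 655 ASVs held by every SAH+Tet library, 437 (66.7%) were in no SAH+Tet+ABX library when all libraries were thinned to 211450 reads, while 127 (19.4%) were in no SAH library. In the SAH+Tet libraries these missing variants made up 21.1%, 21.7% and 26.9% of reads. Muribaculaceae lost 16 of 76 such ASVs (21.1%), Lachnospiraceae 133 of 168 (79.2%), Oscillospiraceae 101 of 151 (66.9%) and Ruminococcaceae 49 of 56 (87.5%). The corresponding losses in SAH were 3.95%, 33.3%, 18.5% and 17.9%. Clostridia UCG-014 kept 0 of 19 and Monoglobaceae 0 of 11. These counts describe the libraries and were not tested, since ASVs of a library share their source.

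**Figure D4:**
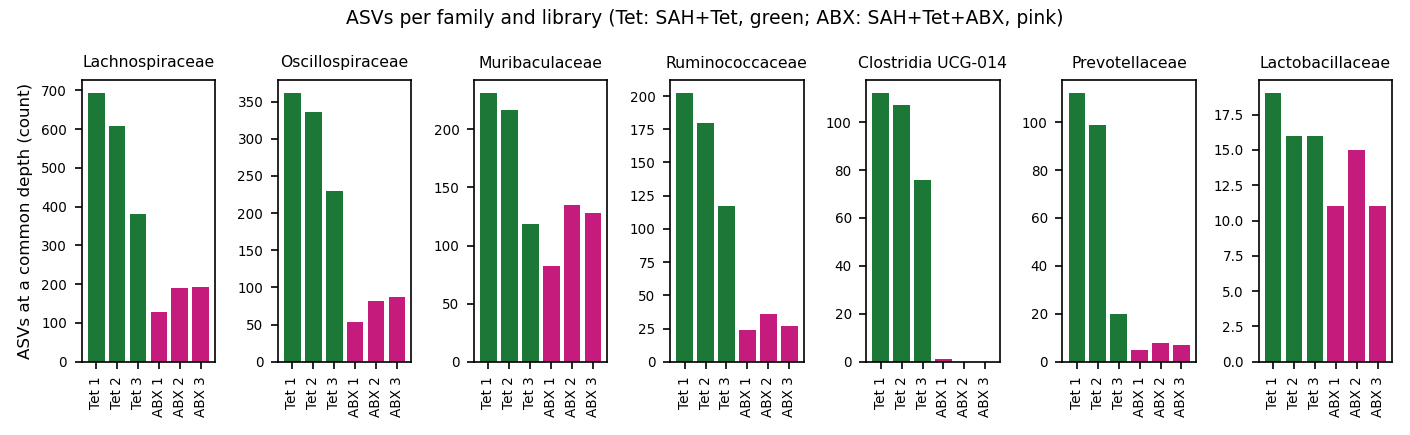
Number of ASVs with a read at a common depth of 211450 reads (y axis, linear, each panel with its own scale from 0) for 7 families in each SAH+Tet (green) and SAH+Tet+ABX (pink) library. Lachnospiraceae, Oscillospiraceae, Ruminococcaceae, Clostridia UCG-014, Prevotellaceae and Lactobacillaceae are lower in all antibiotic libraries than in all SAH+Tet libraries, by the least in Lactobacillaceae, whereas in Muribaculaceae SAH+Tet 3 lies within the range of the antibiotic libraries.

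At a common depth of 211450 reads the SAH+Tet libraries held 2483, 2389 and 1327 ASVs, compared with 440, 659 and 621 in SAH+Tet+ABX. SAH+Tet 3, of similar depth as deposited, thus had more ASVs than any antibiotic library. With only libraries below 300000 reads the antibiotic libraries differed by -753 ASVs on average, against -1493 over all 6. The exact two-sided permutation test of 3 against 3 libraries gave p = 0.1, the smallest value that design allows. The 10 most abundant ASVs made up 57.0%, 44.2% and 32.1% of the antibiotic libraries and 24.8%, 28.4% and 33.7% of the SAH+Tet libraries, so only SAH+Tet+ABX 1 and 2 were more dominated than all SAH+Tet libraries. Across 2394 ASVs tested, edgeR called 247 (10.3%), of which 14 rose (0.585%) and 233 fell (9.73%), whereas centred log-ratios called 234 (9.77%), with 115 higher (4.8%) and 119 lower (4.97%). The number of ASV calls depended on single libraries: without SAH+Tet+ABX 3 there were 0 (792 at an unadjusted p below 0.05), without SAH+Tet 3 493, and without SAH+Tet 1 or 2 there were 144 and 146. Leaving out SAH+Tet+ABX 1 gave 69 and SAH+Tet+ABX 2 gave 79.

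Of all reads in the antibiotic libraries, 74.4%, 87.4% and 73.4% were in ASVs also seen in SAH+Tet (78.4% ± 7.78 SD, n = 3). The same share was 91.8% ± 0.736 in Sham and 88.9% ± 0.683 in SAH (SD, n = 3 each), and 92.6% ± 2.31 between SAH+Tet libraries. A further 3.97%, 7.23% and 14.7% of the antibiotic reads were in ASVs seen only in Sham or SAH outside the antibiotic group, and 21.6%, 5.40% and 11.9% in ASVs seen in no other group. Muribaculaceae reads were 97.9%, 98.2% and 97.0% in SAH+Tet ASVs, and Romboutsia reads were at least 98.6% in them. Lachnospiraceae reads were 44.2%, 47.3% and 39.4%, against 70.1% to 90.7% in the Sham and SAH libraries, and Oscillospiraceae 57.1%, 60.9% and 57.3%, against 87.8% to 95.9%.

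**Figure D5:**
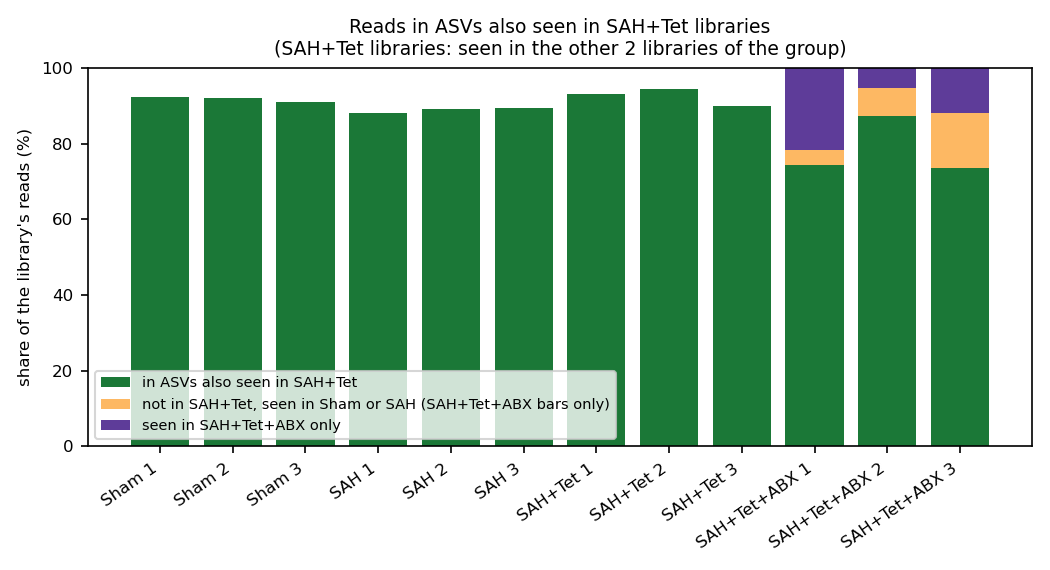
Share of each library's reads (y axis, %) in ASVs also seen in SAH+Tet (green, for SAH+Tet libraries in the other libraries of the group) and, for SAH+Tet+ABX only, in ASVs seen in Sham or SAH but not SAH+Tet (orange) or in no other group (purple). The antibiotic libraries reach 74.4%, 87.4% and 73.4% and every other library lies between 88.1% and 94.5%.

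In some genera the antibiotic reads were in other variants than in SAH+Tet. The [Eubacterium] coprostanoligenes group, which holds cholesterol-reducing bacteria, held 1.47%, 1.38% and 0.800% of the SAH+Tet libraries and 1.14%, 1.57% and 1.32% of the antibiotic libraries (edgeR log2 difference 0.25 ± 0.46 SE, adjusted p = 0.716, or 0.0127 for a higher level with centred log-ratios). Its reads in SAH+Tet+ABX 2 were 99.2% in SAH+Tet ASVs, but those in SAH+Tet+ABX 3 were 0.866% in them and 98.2% in ASVs seen in Sham or SAH. In SAH+Tet+ABX 1, 59.0% were in ASVs seen in no other group. The [Eubacterium] xylanophilum group held 1.01%, 1.62% and 0.905% against 1.54%, 0.758% and 1.21%. In SAH+Tet+ABX 1 and 3 none of its reads were in SAH+Tet ASVs, and all were in variants seen only with antibiotics, while at least 97.2% of its reads in the Sham and SAH libraries were in SAH+Tet ASVs. Reads of Lachnospiraceae NK4A136 group in SAH+Tet+ABX 1 were likewise all in variants seen only with antibiotics, whereas those of SAH+Tet+ABX 2 and 3 were 95.5% and 93.2% in SAH+Tet ASVs. Ruminococcus reads of SAH+Tet+ABX 2 were 94.6% in ASVs seen in Sham or SAH but not SAH+Tet.

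Single ASVs led the antibiotic libraries, and those named here were also seen in SAH+Tet libraries, some at very low share. A Lactobacillus variant (number 1 in the order of the table) made up 16.8% of SAH+Tet+ABX 1, 3.10% of SAH+Tet+ABX 2 and 3.59% of SAH+Tet+ABX 3, against 5.61%, 1.97% and 4.47% of the SAH+Tet libraries. A variant named Lactobacillus intestinalis (number 4) made up 9.45%, 1.19% and 0.175% against 3.46%, 2.05% and 7.59%, and another Lactobacillus variant (number 6) 1.66%, 9.71% and 2.95% against 1.32%, 1.60% and 0.329%. The leading Lactobacillus variant thus differed between SAH+Tet+ABX 1 and 2. Romboutsia variant 5 made up 3.29%, 5.84% and 1.45% against 1.18%, 3.11% and 1.64%. None of these 4 passed the test.

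Muribaculaceae variant 23 made up 0.00153%, 0% and 0.00704% of the SAH+Tet libraries and 1.80%, 4.72% and 3.87% of the antibiotic libraries, and rose (edgeR log2 difference 9.77, adjusted p = 0.0179), a call lost without SAH+Tet+ABX 3 like every ASV call. The Sham and SAH libraries held it at 0.0141% to 0.0845%. Muribaculaceae variants 25 and 26 made up 0.253%, 4.75% and 4.00% and 0.253%, 4.46% and 3.83% of the antibiotic libraries, against 0.0712%, 0.109% and 0.233% and 0.0705%, 0.108% and 0.245% (adjusted p = 0.0635 and 0.0603). The shares of these 2 variants ran closely together in each of the 6 libraries. A Lachnospiraceae variant without a genus name (number 62) made up 5.57% of SAH+Tet+ABX 1, 0.0658% of SAH+Tet+ABX 2 and 0 reads of SAH+Tet+ABX 3, against 0%, 0% and 0.00572% in SAH+Tet (adjusted p = 0.0952).

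The antibiotic libraries also differed in which genera they lacked. SAH+Tet+ABX 1 held 69 genera at 0.01% or more, SAH+Tet+ABX 2 78 and SAH+Tet+ABX 3 85, against 143, 138 and 107 in the SAH+Tet libraries. In SAH+Tet+ABX 1, 16 genera had at most 3 reads that reached 0.01% in both other antibiotic libraries, compared with 3 such genera in SAH+Tet+ABX 2 and 1 in SAH+Tet+ABX 3. Examples, chosen after their values were seen, are Allobaculum (0% against 1.68% and 0.524%), Christensenellaceae R-7 group (0% against 0.290% and 0.947%), Monoglobus (0% against 0.374% and 0.058%) and Clostridium sensu stricto 1 (0% against 0.271% and 0.0408%). SAH+Tet+ABX 1 was also the library with the highest Lactobacillus share and the lowest share of Bacteroidota, at 10.7% against 40.7% and 38.3%.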

How the data were processed

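Reads of the 16S rRNA gene from faeces of 12 libraries (4 groups of 3) were deposited as counts per amplicon sequence variant; per the file headers each row is a variant with its lineage. The authors used fastp and cutadapt, per the submitters' processing notes, which give no version. The labels and files name no primers, denoiser or database of taxa. The counts in the 12 files of single libraries were identical to those of the table of all libraries. Of 7240 variants, 2 Eukaryota variants were left out, and the rest were summed to 384 genus-level features (303 with a genus name) and 193 families; "unnamed" lineages carry the lowest rank given.

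Shares are percentages of a library's reads. Features with at least 10 reads in 3 libraries were tested in edgeR 4.0.16 (TMM scaling, quasi-likelihood test, Benjamini-Hochberg adjustment over all features tested; R 4.3.3) on all 12 libraries, so that groups share 1 estimate of the spread, with SAH+Tet+ABX minus SAH+Tet as the contrast. The scripts were tested on simulated data. Alternatives were library-size and TMMwsp scaling, DESeq2 1.42.0, limma 3.58.1 on centred log-ratios (0.5 added), the filter, only the 6 libraries, the replicate number as a block, depth class, thinning, class limits, and leaving out each library. Richness was taken as the mean of 100 random draws to 211450 reads and compared with an exact permutation test in scipy 1.17.1 (Python 3.11.15).

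Taxa were named by a rule: up to 6 genera of each class by mean share, up to 10 of lowest p in each direction, the leading genera and variants of each antibiotic library, members of the lists, and families of 0.5% or more. The comparison, its members and the lists were chosen with earlier results of these data known. No sequences were used.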

Additional observations from a re-analysis of the deposited data

How the results depend on the processing

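Depth and group are partly tied, since all antibiotic libraries are shallow and of the SAH+Tet libraries only the third is. The 74 genus calls became 43 with only the 6 libraries, 45 with depth class as a covariate, 0 with only libraries below 300000 reads and 45 to 80 when a library was left out. The 28 family calls became 45 with DESeq2, 15 with only the 6 libraries, 0 with only libraries below 300000 reads and 15 to 36 when a library was left out. The 247 ASV calls became 159 with library-size scaling, 135 with TMMwsp, 891 with DESeq2, 426 with only the 6 libraries, 145 with depth class, 0 with only libraries below 300000 reads (33 at an unadjusted p below 0.05), 758 after thinning and 0 to 493 when a library was left out. These settings also differed in how many features were tested. With only the 6 libraries, 136 genera, 60 families and 772 ASVs were tested, against 195, 93 and 2394 with all 12 libraries. After thinning, 1922 ASVs were tested. Settings with fewer libraries gave fewer calls in some cases and more in others, and the cause was not tested for any setting. With a limit of 0.1% in every library the classes held 5 lost, 18 depleted, 17 surviving, 0 expanded and 1 gained genera, and with 0.001% there were 33 lost and 8 gained. Leaving out a library gave 20 to 49 lost, 25 to 37 depleted, 26 to 41 surviving, 6 to 11 expanded and 5 to 6 gained genera. The difference in ASV number ranged from -1863 to -1284, that in the Shannon index from -1.33 to -0.866, and the share of reads in SAH+Tet ASVs from 73.3% to 76.9%.

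Same-numbered SAH+Tet and SAH+Tet+ABX libraries deviated with correlations of -0.011, 0.017 and 0.142, and 2 of 6 libraries correlated best with their own number. With 3 libraries per group, these values cannot tell whether same-numbered libraries share more than a number. With the replicate block 45 genera, 24 families and 99 ASVs were called, and 38 of the 56 genera that fell and 7 of the 18 that rose were among them.

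Among called genera, the log2 difference turned to 0.036 for Rikenellaceae RC9 gut group with depth class, to 1.14 for Staphylococcus with only libraries below 300000 reads and to 0.11 for unnamed Ruminococcaceae with centred log-ratios. Among named genera that did not pass edgeR's test, centred log-ratios turned Lachnospiraceae NK4A136 group to 0.51, unnamed Oscillospiraceae to 0.96, Alloprevotella to 1.52 and Pseudomonas to 2.23, of which Pseudomonas passed there (adjusted p = 0.041). Alloprevotella also turned to 0.22 with TMMwsp, 0.13 without the filter, 0.28 with only the 6 libraries, 0.22 with depth class, 0.10 after thinning and ranged from -0.98 to 0.51 when a library was left out. Pseudomonas turned to 0.072 with TMMwsp, 0.12 without the filter, 0.44 with only the 6 libraries, 0.10 after thinning and ranged from -0.10 to 0.10 when a library was left out. Unnamed Bacilli turned to -0.012 with depth class, -0.39 with only libraries below 300000 reads and ranged from -0.34 to 1.41 when a library was left out. Unnamed Lachnospiraceae turned to -0.14 with only libraries below 300000 reads, and Brevundimonas ranged from -0.25 to 0.29 when a library was left out. The [Eubacterium] xylanophilum group turned to -0.013 with library-size scaling, -0.13 with the replicate block and ranged from -0.11 to 0.37 when a library was left out.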

Other observations

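Pseudomonas, an aerobic Gram-negative genus that is no typical gut resident, overlapped between the groups. It held 0.840%, 0.832% and 0.909% of the SAH+Tet libraries and 0.988%, 0.666% and 0.791% of the antibiotic libraries (edgeR adjusted p = 0.999, but log2 difference 2.23 and adjusted p = 0.041 with centred log-ratios), and its range over the 9 libraries without antibiotics was 0.663% to 1.14%. In the antibiotic libraries all its reads were in 1 ASV that SAH+Tet also held.

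Clostridioides, the genus of the antibiotic-associated pathogen Clostridioides difficile, had 0 reads in SAH+Tet and 0.00568%, 0.00512% and 0.00449% in the antibiotic libraries, 35 reads in all. It met the count filter only through the antibiotic libraries, its call was lost without any library except SAH+Tet 3, and SAH 2 and 3 held it at 0.00903% and 0.00735%. The [Ruminococcus] gnavus group was a single ASV, the same in SAH+Tet+ABX 1, 2 and 3.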
